A study of Homo sapiens with 4 samples.

Results

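HOX genes encode homeodomain transcription factors that give cells their position along the body axis. They were examined here in HEK293 cells, a human embryonic kidney line transformed with adenovirus DNA that grows as an adherent layer. Members were the genes whose symbol is HOXA, HOXB, HOXC or HOXD followed by a number only, taken from array probe sets to which the annotation gives exactly 1 gene symbol. This rule gave 28 genes among 19775 with such a probe set, and the reference gene table holds 39 HOX genes in all. The 28 were 10 of HOXB, 9 of HOXC, 8 of HOXD and 1 of HOXA, HOXA2. The other HOXA genes and HOXD3 were not analysed here, so the HOXA cluster is not described as a cluster.

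RNA was hybridised to 4 Affymetrix expression arrays. The LPA group (2 arrays, replicates 1 and 2) was HEK293 cells kept overnight without serum and then given lysophosphatidic acid, a phospholipid of serum that binds G protein-coupled receptors, for 2 h at 1 µM. The untreated group (2 arrays, replicates 1 and 2) was the same line with its treatment given as none, and its arrays are titled Vc, an abbreviation left unexplained. Serum withdrawal is not read here as a difference between the groups. If it were one, it could not be told apart from LPA. Nothing in the labels states that replicates came from separate cultures, so the spread behind each p-value is that of these arrays alone and may be technical.

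The human HOX genes lie in 4 clusters, HOXA on chromosome 7, HOXB on chromosome 17, HOXC on chromosome 12 and HOXD on chromosome 2. Genes of the same number in different clusters are paralogs that descend from 1 ancestral gene. Within a cluster the low numbers are switched on first in the embryo and act in the hindbrain and neck, and the high numbers act later, in the lower trunk, limbs, kidney and genital tract. Cells of adult tissues and cell lines often keep a HOX pattern, held by Polycomb proteins, which repress the clusters, and Trithorax proteins, which keep them active.

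To show the kind of DNA in which these genes start, the 250 bases upstream of 4 HOXD starts are given, for a pair of genes whose probe sets lay above background on all arrays (HOXD11, HOXD10) and a pair below it on all arrays (HOXD12, HOXD1). They are RefSeq sequences of build GRCh38.p14, 5′ to 3′ on the plus strand, with each CG dinucleotide in capitals.
HOXD12, chr2:176099545-176099794: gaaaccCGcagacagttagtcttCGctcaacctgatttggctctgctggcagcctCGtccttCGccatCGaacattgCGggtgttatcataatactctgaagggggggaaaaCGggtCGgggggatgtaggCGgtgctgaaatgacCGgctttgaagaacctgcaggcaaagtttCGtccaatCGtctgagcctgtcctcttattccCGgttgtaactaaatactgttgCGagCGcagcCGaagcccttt
HOXD11, chr2:176107030-176107279: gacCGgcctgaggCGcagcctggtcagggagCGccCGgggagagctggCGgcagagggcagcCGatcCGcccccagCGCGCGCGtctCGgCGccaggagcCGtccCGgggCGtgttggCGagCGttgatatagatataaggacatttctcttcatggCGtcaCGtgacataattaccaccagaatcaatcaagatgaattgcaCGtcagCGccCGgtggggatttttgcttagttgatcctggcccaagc
HOXD10, chr2:176116528-176116777: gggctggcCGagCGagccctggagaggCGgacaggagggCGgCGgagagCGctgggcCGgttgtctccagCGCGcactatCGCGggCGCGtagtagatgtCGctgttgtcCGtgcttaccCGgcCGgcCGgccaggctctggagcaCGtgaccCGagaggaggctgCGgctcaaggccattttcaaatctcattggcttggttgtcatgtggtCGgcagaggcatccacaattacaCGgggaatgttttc
HOXD1, chr2:176188418-176188667: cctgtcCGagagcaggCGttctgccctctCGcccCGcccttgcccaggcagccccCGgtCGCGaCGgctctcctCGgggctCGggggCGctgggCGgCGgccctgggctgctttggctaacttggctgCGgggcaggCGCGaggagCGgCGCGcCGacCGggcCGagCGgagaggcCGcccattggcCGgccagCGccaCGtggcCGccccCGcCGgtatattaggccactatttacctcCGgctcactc
These windows held 16, 23, 23 and 31 CG dinucleotides in the order given, so the window with most belonged to HOXD1, a gene below background. Of the 28 members 11 had such a window, with 4 (HOXD4) to 31 CG and a median of 16, against a median of 11 over 35116 windows of the same length. HOXC4 and HOXC5 had the same window, since their transcripts share a start, and it is counted for each of them among the 11. The letters TATAAA, searched on both strands, were in 1 of the 11 (HOXD13) and in 10.7% of all windows. The letters TGATNNAT, a composite motif of HOX and PBX proteins, were in 3 of the 11 (HOXB1, HOXD11 and HOXA2) and in 6.47% of all windows.

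Array values are MAS5 signals on a linear scale, and each gene is represented by its brightest probe set over the 4 arrays. Because probes differ in how brightly they bind, signals are compared between arrays for 1 probe set. Brightness is set between genes only for the background level, the filter on dim genes and the description of spread. A background level was set on each array as the 95th percentile of the brightest probe sets of 82 olfactory receptor genes, which are mostly silent outside the nose. That level was 98.2 and 78.7 on the LPA arrays, and 90.6 and 103 on the untreated arrays. In all, 21 of the 28 HOX genes (75%) were above it on all 4 arrays, against 52.6% of all 19775 genes. Another 4 were above it on some arrays (HOXA2, HOXB1, HOXC5 and HOXC8) and 3 on none (HOXC12, HOXD1 and HOXD12), where 35.8% of all genes were above it on none. Raising the level to the 99th percentile of the olfactory receptor genes also gave 21 HOX genes. The share of all genes above that higher level was not computed.

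By cluster, 9 of 10 HOXB genes, 6 of 9 HOXC genes and 6 of 8 HOXD genes were above background on all arrays. In HOXB these were HOXB2 to HOXB9 without a break, and HOXB13. In HOXC they were HOXC4, HOXC6, HOXC9, HOXC10, HOXC11 and HOXC13. In HOXD they were HOXD4, HOXD8 to HOXD11 without a break, and HOXD13. By paralog number, all analysed members of groups 3, 4, 6, 7, 9, 10, 11 and 13 were above background on all arrays, and no member of groups 1 and 12 was. Groups 3 and 7 had only 1 analysed member each (HOXB3 and HOXB7), and the other groups 2 or 3. The gap at number 12 lay between neighbours above background in both HOXC and HOXD, as the plot of signals by gene shows, but each of HOXC12 and HOXD12 had only 1 probe set, so a probe set that binds poorly could not be told apart from absent transcript.

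**Figure D1:**
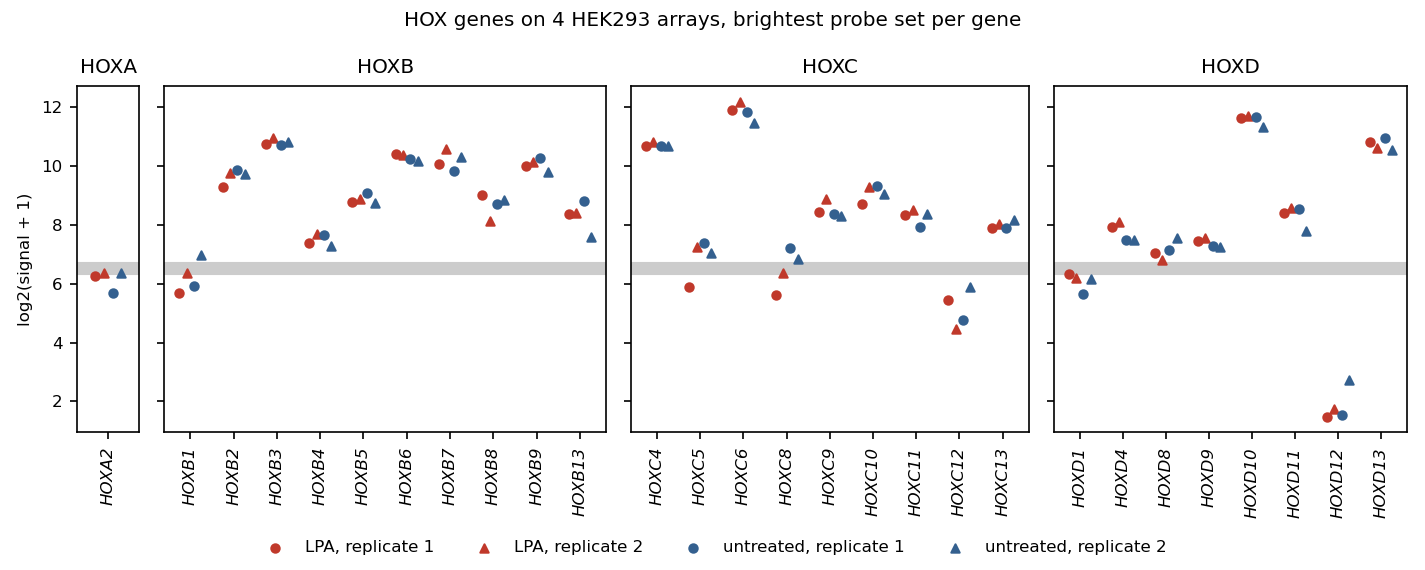
Signal of each HOX gene's brightest probe set as log2(signal + 1) on the y axis, by gene in order of paralog number within each cluster; red points are LPA arrays, blue points untreated arrays, circles replicate 1 and triangles replicate 2, and the grey band spans the background level of the 4 arrays. Of 28 genes 21 lie above the band on every array, while HOXC12, HOXD1 and HOXD12 lie in or under it, below their own array's level, on every array.

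Among the anterior genes, numbers 1 to 3, HOXB1, which patterns the hindbrain, read 50.3 and 80.9 after LPA, against 59.7 and 124 in untreated cells. HOXD1 read 79.7 and 73.0 against 49.6 and 70.4, all below background. HOXA2, which acts in the hindbrain and pharyngeal arches, read 75.0 and 81.8 against 50.1 and 80.5. Only HOXB1 and HOXA2 of these 3 were above background on any array. The next HOXB genes were above it on all arrays: HOXB2 read 623 and 862 after LPA, against 936 and 844 in untreated cells. HOXB3 read 1726 and 1990.3 against 1669.8 and 1825.

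The central genes, numbers 4 to 8, specify neck and trunk segments. HOXB4, which is also known for expanding blood stem cells, read 167 and 207 after LPA, against 201 and 155 in untreated cells. HOXC4 read 1634 and 1799 against 1633 and 1639, and HOXD4 read 240.3 and 274 against 180.2 and 179. HOXB5 read 441 and 474 against 544 and 426. The HOXD4 groups did not overlap, while those of HOXB4, HOXC4 and HOXB5 did.

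HOXB6 read 1370.0 and 1331 after LPA, against 1212 and 1160 in untreated cells, without overlap. HOXC6 read 3866 and 4673 against 3643 and 2817, also without overlap. HOXB7 read 1087 and 1522 against 907 and 1262, so that in each group replicate 2 was higher. HOXB8, whose mouse counterpart acts in blood progenitors and microglia, read 521 and 282 against 423 and 456. LPA replicate 2 was the low array for HOXB8, the reverse of HOXB7. HOXD8 read 132 and 111 against 142 and 187, both LPA values lying below both untreated values.

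HOXC5 and HOXC8 were the members nearest to background in the middle of HOXC. HOXC8, which in mouse acts in motor neurons of the forelimb level, read 48.5 and 82.1 after LPA, against 146 and 113 in untreated cells. HOXC5 read 57.6 and 151 against 166 and 131. LPA replicate 1 was the low array for both, below its background level of 98.2.

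The posterior genes, numbers 9 to 13, act in the lower trunk, limbs and urogenital tract. HOXB9 read 1038 and 1137 after LPA, against 1227 and 896 in untreated cells. HOXC9, in mouse a determinant of thoracic motor neuron identity, read 343 and 475 against 331 and 315, without overlap. HOXD9 read 175 and 189 against 153 and 150.4, without overlap. Of the number 9 paralogs, HOXB9 alone had its groups overlapping.

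HOXC10 read 416 and 628 after LPA, against 644 and 532 in untreated cells. HOXD10, which in mouse patterns lumbar motor neurons and the hindlimb, read 3156 and 3352 against 3273 and 2586. Genes of number 11 are required in mouse for the metanephric kidney, with HOXA11, HOXC11 and HOXD11 acting together. HOXC11 read 325 and 365 against 244 and 327, and HOXD11 read 339 and 385 against 371 and 220.3. In both, groups overlapped, and the low value was an untreated array.

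HOXB13, known from the prostate, read 329 and 334 after LPA, against 446 and 191 in untreated cells, so the untreated arrays differed from each other more than the groups did. HOXC13, needed for hair and nails, read 235 and 262 against 235 and 285. HOXD13, the gene of digit and genital development, read 1789 and 1574 against 1996 and 1503. HOXC12 read 42.7 and 20.8 against 26.5 and 57.8, and HOXD12 read 1.79 and 2.31 against 1.92 and 5.58, all below background.

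LPA was compared with no treatment by limma over all genes above a filter on dim genes (the 40th percentile of mean log2 signal, a signal of 70.5), on log2(signal + 1), so that a difference understates the change of dim genes. The filter kept 25 of the 28 HOX genes and 11865 genes in all. HOXC12, HOXD1 and HOXD12 did not pass it and were not tested. HOXC8 and HOXB1 passed it only through their untreated arrays. Their mean signals were 65.3 and 65.6 after LPA, against 130 and 91.9 in untreated cells. HOXA2 passed only through its LPA arrays (78.4, against 65.3 in untreated cells). The direction of these differences is thus tied to the filter, and nothing is drawn from it. Of the 25 HOX genes 0 passed the adjusted p threshold of 0.05, against 0 of 11865 genes (0%), and 0 had an unadjusted limma p under 0.05, against 207 (1.74%).

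On average 15 of the 25 HOX genes were higher after LPA (60%, against 51.9% of all genes tested) and 10 lower. The median log2 difference was 0.077 over the HOX genes and 0.0092 over all genes, and HOX differences ran from -1.01 to 0.51. The groups did not overlap for 7 HOX genes (28%), against 27% of all genes. Of these, 5 were higher after LPA (20%, against 14.4% of all genes) and 2 lower (8%, against 12.5%). HOXC8, among the lower, passed the filter only through its untreated arrays. With median centring of the arrays 10 HOX genes (40%) did not overlap, against 27.4% of all genes, and with a filter at the 60th percentile 2 of 12 (16.7%), against 25.7%.

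HOXC6 had the smallest p of the 25, at a log2 difference of 0.41 with an SE of 0.18 (n = 2 arrays in each group; the values after ± below are SEs too). HOXC8, which passed the filter only through its untreated arrays, followed at -1.01 ± 0.46, then HOXD4 at 0.51 ± 0.31. The other 4 genes without overlap were HOXC9 (0.32 ± 0.28), HOXD8 (-0.43 ± 0.38), HOXB6 (0.19 ± 0.18) and HOXD9 (0.26 ± 0.34). Limma gave adjusted p = 0.9999 for each of these and for HOXC5, whose difference was -0.65 ± 0.51 with overlapping groups. Over all alternatives for these 8 genes the adjusted p from limma ran from 0.218 (HOXC6) to 0.99999. HOXC5 and HOXC8 each had an LPA value under the filter's signal, and without LPA replicate 1 the HOXC5 difference was 0.035, without LPA replicate 2 -1.34. Leaving out 1 array also moved 4 of the genes without overlap by over 1.5 times. HOXC6 gave 0.22 without untreated replicate 2 and 0.27 without LPA replicate 2. HOXC8 gave -0.64 without LPA replicate 1 and HOXD8 -0.23 without untreated replicate 2. HOXC9 gave 0.088 without LPA replicate 2 and 0.56 without LPA replicate 1.

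**Figure D2:**
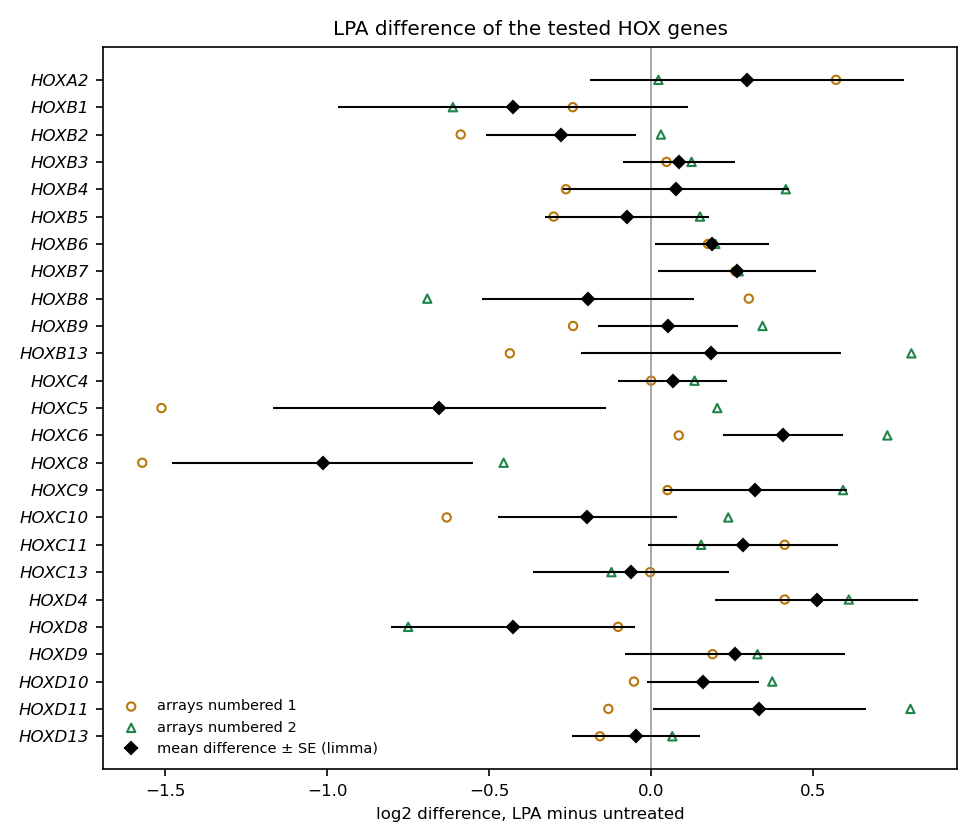
Log2 difference of LPA minus untreated (x axis) for each of the 25 tested HOX genes; black diamonds are the mean difference with bars of 1 standard error from limma, open circles the difference between the arrays numbered 1 and open triangles that between the arrays numbered 2. The means run from -1.01 (HOXC8) to 0.51 (HOXD4), and for 11 genes circle and triangle lie on opposite sides of 0. HOXC8 passed the filter on dim genes only through its untreated arrays.

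The array pairs of the same number gave different pictures. Between the arrays numbered 2, LPA was above untreated for 20 of 25 HOX genes (80%, against 53.3% of all genes), with a median difference of 0.20. Between those numbered 1, it was above for 11 of 25 (44%, against 49.8%), with a median of -0.053. With median centring of the arrays, LPA was above untreated in number 2 for 20 of 25 HOX genes, against 63.9% of all genes. In number 1 it was then above for 10, against 48.4%. The sign of the difference disagreed between the pairs for 11 HOX genes (44%), against 46.6% of all genes. HOXB13 gave -0.44 in number 1 and 0.80 in number 2, HOXD11 -0.13 and 0.80, HOXC10 -0.63 and 0.24, and HOXC5 -1.51 and 0.20. HOXB6 (0.18 and 0.20), HOXB7 (0.26 and 0.27) and HOXD4 (0.41 and 0.61) were the more even ones.

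LPA replicate 2 held the highest of the 4 values for 12 of the 25 HOX genes (48%), against 29.2% of all genes, and untreated replicate 2 the lowest for 12 (48%), against 26.7%. With quantile normalization these counts were 10 and 10 of 24, against 27.5% and 24.3% of all genes. LPA replicate 2 also had the lowest maximum signal, 62508, where the LPA array numbered 1 reached 93776 and the untreated arrays 97077 and 104012. The part of this array in the HOX values was not tested beyond leaving it out, which gave a median HOX difference of 0.023.

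**Figure D3:**
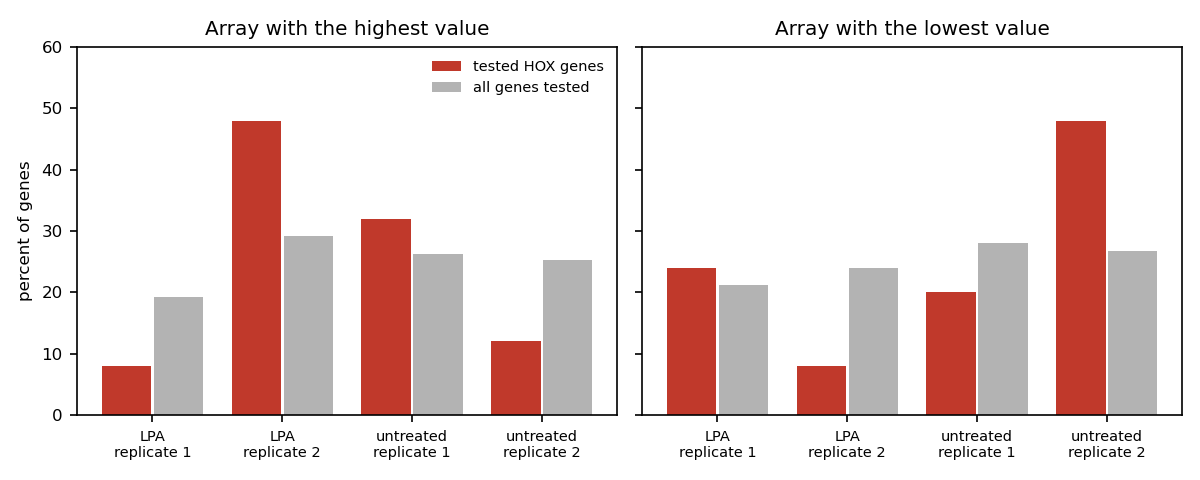
Percent of genes (y axis) whose highest value (left) or lowest value (right) fell on each of the 4 arrays, for the 25 tested HOX genes (red) and all 11865 genes tested (grey). LPA replicate 2 held the highest value for 48% of the HOX genes, and untreated replicate 2 the lowest for 48%.

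Over the 4 arrays the HOX genes had a median SD of 0.27 on the log2 scale, against 0.22 for all genes tested, and 10 of 25 (40%) lay below that median of all genes, against 50% by definition. The HOX genes were also dimmer, with a median mean log2 signal of 8.50 against 9.55, and the part of brightness in their spread was not tested beyond a stricter filter. Among genes above the 60th percentile of signal, which kept 12 HOX genes, the median SD was 0.19 for HOX and 0.18 for all genes. The steadiest members were HOXC4, with an SD of 0.069 and a highest-to-lowest ratio of 1.10 over the 4 arrays, HOXB3 (0.11 and 1.19) and HOXB6 (0.11 and 1.18). The least steady were HOXC5 (0.69 and 2.88), HOXC8 (0.68 and 3.01) and HOXB1 (0.56 and 2.47), each below background on at least 1 array. HOXB13, above background on every array, had an SD of 0.51.

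**Figure D4:**
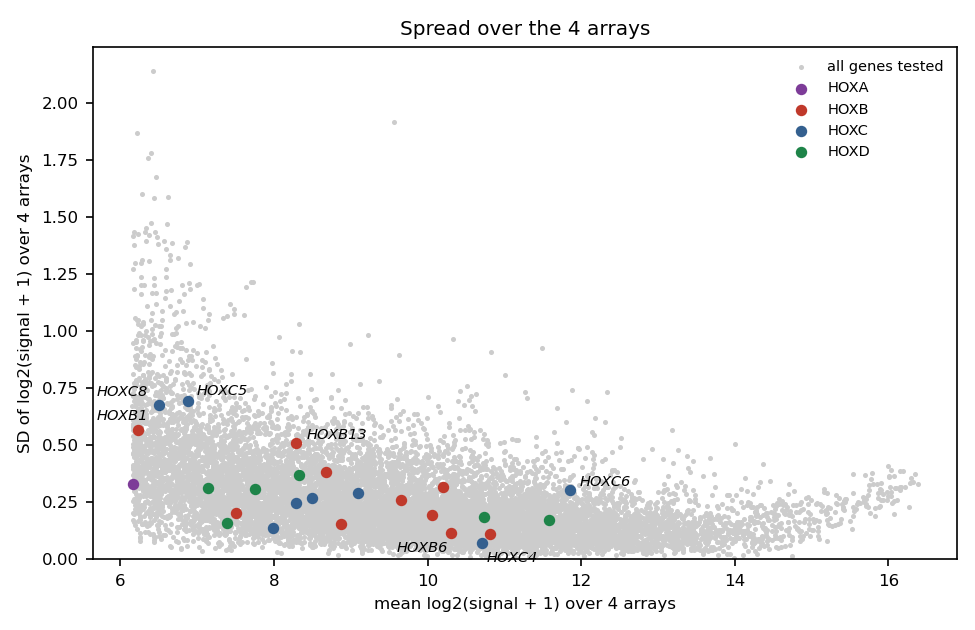
Standard deviation of log2(signal + 1) over the 4 arrays (y axis) against its mean (x axis) for all 11865 genes tested (grey) and the 25 tested HOX genes, coloured by cluster. HOX SDs run from 0.069 (HOXC4) to 0.69 (HOXC5), and the 3 largest belong to HOXC5, HOXC8 and HOXB1 at the dim end.

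By cluster, the median log2 difference was 0.064 over 10 HOXB genes, 0.0026 over 8 HOXC genes and 0.21 over 6 HOXD genes. It was 0.068 over 15 genes numbered 1 to 8 and 0.17 over 10 genes numbered 9 to 13. In number 2, LPA was above untreated for 9 of those 10 posterior genes (90%), against 53.3% of all genes. The genes numbered 1 to 8 gave 11 of 15 there (73.3%), so this lean was not particular to the posterior genes. In number 1, LPA was above for 3 of the 10 (30%) and 8 of the 15 (53.3%), against 49.8% of all genes. The differences between clusters and between positions were not tested.

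The 28 members had 44 probe sets, 28 of which were above background on all arrays, and 15 members had a single one. For 5 genes more than 1 probe set was above background on all arrays, and in 2 of these the probe sets disagreed in the sign of the LPA difference. The probe sets of HOXB7 gave 0.27, 0.25 and 0.82, the last with 586 and 578 after LPA against 419 and 258 in untreated cells, and those of HOXD10 gave 0.16, 0.41 and 0.015. HOXD13 gave -0.046 and -0.22. HOXB5 gave -0.075 and 0.050, and HOXB9 gave 0.052 and -0.48, the second with 281 and 327 after LPA against 412 and 433 in untreated cells. For HOXB9 the dimmer probe set thus separated the groups, lower after LPA, while the brighter did not. The third probe set of HOXB7 and the second of HOXD10 also separated them, higher after LPA, where the brightest did not. That of HOXD10 read 386 and 342 after LPA, against 302 and 247 in untreated cells. Each second probe set of HOXB5 and HOXB9, and the third of HOXB7, is of the x type, a name that marks probes shared with other transcripts, so paralogs could contribute to it. The caution is not limited to these. The brightest probe sets of HOXB5, HOXB6, HOXB7, HOXB8, HOXC6, HOXC13 and HOXD1 are of the s type, whose probes may also match more than 1 transcript. HOXD4 and HOXD9 each had a second probe set below background on all arrays, which for HOXD4 differed by -0.75.

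Genes that act with or on the HOX clusters were read from lists, beside which 27% of all genes tested had no overlap between groups. TALE homeodomain proteins bind DNA together with HOX proteins, and 7 of 8 analysed members were above background on all arrays, with 0 of 8 past the threshold. MEIS1 read 741 and 1096 after LPA, against 919 and 846 in untreated cells. MEIS2 read 2313 and 2320.1 against 2486 and 2115. PKNOX2 was the 1 member of 8 without overlap (12.5%; 303 and 299 against 230.3 and 280.0, a log2 difference of 0.24 ± 0.29).

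All 17 analysed Polycomb genes were above background on all arrays and 0 passed. EZH2, the enzyme that methylates histone H3 for Polycomb repression, read 2834 and 3079 after LPA, against 2672 and 2748 in untreated cells. It was 1 of 4 members without overlap (23.5%), 3 of them higher and 1 lower. The chromobox protein CBX7 read 222 and 295 against 182 and 159 (0.59 ± 0.33), the histone-binding RBBP7 differed by 0.13 ± 0.15 and JARID2, a cofactor of EZH2, by -0.19 ± 0.18. All 14 genes of a list of Trithorax and activating regulators were above background on all arrays as well. Of these 0 passed, and 0 of 14 were without overlap (0%, against 27% of all genes). KMT2A, the methyltransferase that maintains HOX expression, read 1095 and 1153 against 1649 and 758. The untreated arrays differed from each other by more than the LPA arrays did for KMT2A.

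Retinoic acid, made by ALDH1A enzymes and removed by CYP26 enzymes, induces HOX genes in the embryo from the low-numbered end. Of 15 genes in this list 10 were above background on all arrays, 11 were tested and 0 passed. ALDH1A3 (208 and 202 after LPA, against 304 and 276 in untreated cells, -0.49 ± 0.30), CYP26B1 (-0.40 ± 0.35) and the receptor RXRB (-0.23 ± 0.24) were lower without overlap. These 3 of 11 (27.3%) stand against 12.5% of all genes lower without overlap, and 27% without overlap in either direction. The difference in share was not tested. ALDH1A2 read 4411 and 6003 against 4959 and 5816. The caudal factors CDX1 and CDX4, which activate central HOX genes, were below background on all arrays, and CDX2 was above it on 1.

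Of 11 analysed non-coding transcripts of the clusters, 4 were above background on all arrays and 0 of 8 tested passed. HOTAIR, from HOXC, read 443 and 271 after LPA, against 319.9 and 199 in untreated cells. HOXA11-AS read 292 and 273 against 291 and 240, HOXB-AS3 331 and 393 against 330.0 and 467, and HAGLR, from HOXD, 187 and 252 against 305 and 199. HOXD-AS2 read 182 and 230.2 against 144 and 80.1 (0.92 ± 0.41, without overlap), with 1 untreated value below background. HOTTIP differed by -0.31 ± 0.43 without overlap, near background, and these 2 of 8 made 25%. Which strand was labelled is uncertain here, so an antisense transcript and its HOX neighbour may not be told apart.

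The protein-coding genes that flank the clusters in the GRCh38.p14 table, the 3 nearest on each side, were above background on all arrays in 19 of 23 cases, and 0 of 20 tested passed. EVX1, the homeobox gene beside HOXA, was below background on all arrays, as was TTLL6 beside HOXB. SKAP1, at the HOXB1 end of HOXB, read 65.9 and 79.0 after LPA, against 10.1 and 10.5 in untreated cells, and was above background on 1 array only. SNX10 (0.19 ± 0.17) and SNX11 (0.23 ± 0.26) were higher and ATP5MC2 (-0.20 ± 0.16) lower without overlap, 3 of 20 (15%). Of 7 analysed ParaHox and HOX-linked homeobox genes only MNX1 was above background (812 and 1046 against 969 and 864), and EVX1 is counted in this list too.

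The cell label was checked on marker genes. Of 10 analysed genes of the HEK293 background 8 were above background on all arrays, such as the neurofilament gene NEFM and the kidney factor PAX8. The other 2 were kidney factors too: PAX2 was above it on 3 arrays and LHX1 on 0. The summed signal of the 10 genes was 31293 to 34986 on LPA arrays and 36954 to 41115 on untreated arrays. VIM alone carried that gap: the sum of the other 9 was 10635 to 11395 on LPA arrays and 10072 to 10914 on untreated arrays, which overlap. VIM (-0.37 ± 0.17) and PAX8 (-0.21 ± 0.28) were lower after LPA without overlap, 2 of 9 tested (22.2%, against 12.5% of all genes lower), while NEFL (0.33), CDH2 (0.21) and KRT8 (0.19) had positive differences with overlap. The list's median was -0.034, and 0 of 9 passed. Of 17 markers of other cell types 5 were above background on all arrays (CD79A, COL1A1, COL3A1, EPCAM and CDH1), and 10 on none, among them PTPRC, VWF, ALB and DES. Their summed signal was 2356 to 2689 on LPA arrays and 2442 to 2598 on untreated arrays, so these ranges overlapped. CDH1 was the 1 member of 6 tested without overlap (16.7%; 0.47 ± 0.30), and 0 of 6 passed.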

How the data were processed

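Per the submitters' processing notes, the authors made the deposited signal intensity values with MAS5. No source used here gives its version or scaling target, and detection calls were not used. Each array's mean after trimming 2% at both ends was 500.1, so arrays had been scaled before deposit, and no further normalization was applied. Per the labels' protocols the target was labelled by a whole-transcript method, while the probe sets are of a 3′ design. Depth has no meaning for arrays; their number limits the precision, and limma's SE of a log2 difference had a median of 0.24 (0.29 over HOX genes).

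Of 54675 probe sets, 41097 had 1 gene symbol. The brightest probe set by mean log2(signal + 1) represented each of 19775 genes, and genes under the 40th percentile were left out. Groups were compared with limma 3.58.1 in R 4.3.3 (lmFit and eBayes, with the prior variance following intensity; two-sided), and p-values were adjusted by Benjamini-Hochberg over 11865 genes. The test was checked on simulated data. An exact permutation test of 2 against 2 arrays cannot go below p = 0.333 and was not used.

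HOX members were chosen by symbol, and members, lists and tests with earlier results of these data known. Named for the LPA difference were up to 8 members without overlap in order of p and the 3 of largest difference, for stability the 3 of smallest and largest SD, and from each companion list up to 3 without overlap. Other companions were named after their values were seen. Alternatives were other scalings, pseudocounts, filters, the mean of a gene's probe sets, no intensity trend, the replicate number as a block, leaving out each array, and other background levels.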

Additional observations from a re-analysis of the deposited data

How the results depend on the processing

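No HOX gene passed the threshold in limma under any alternative that kept all 4 arrays. Without an intensity trend 2 of 25 HOX genes had an unadjusted limma p under 0.05, against 358 of 11865 genes. The replicate block gave 1 of 25, against 1014 of 11865. Together with quantile normalization the block gave 1 of 24, against 1045. The other alternatives with all 4 arrays gave 0 HOX genes, against 122 to 608 of all genes. The number of HOX genes above background on all arrays was 21 under the scalings and both other background levels, 18 with the mean of a gene's probe sets, and 21 to 23 when leaving out an array. The share of all genes above background was not computed for these alternatives, so these counts have no share beside them. The HOX median log2 difference ran from -0.012 (mean of all probe sets) to 0.17 (without LPA replicate 1), and was also below 0 without untreated replicate 2 (-0.0090), so its sign is not fixed. The number of HOX genes without overlap was 2 with a filter at the 60th percentile, which kept 12 HOX genes (16.7%, against 25.7% of all genes), and 13 to 19 when leaving out an array (52% to 76%, against 56.3% to 68.4%), where fewer arrays overlap less by construction. Over all genes, 32 passed with the replicate number as a block and 4 with the replicate block and quantile normalization, 0 of them HOX genes. The deviations of same-numbered arrays correlated at 0.33 over genes and at -0.0046 over the tested HOX genes, and the labels do not say what the number marks. Leaving out an array gave 0 to 3 genes in all, with a lone array assumed to vary like the other group. Of 114 alternative values of the 8 named HOX genes 2 changed sign, HOXC5 without LPA replicate 1 (0.035, with -1.34 without LPA replicate 2 at the other end of its range) and HOXD4 with the mean of all probe sets (-0.12); the second averages in a probe set below background, and the cause of the first was not tested. Leaving out untreated replicate 2 moved the median HOX SD to 0.19, against 0.20 for all genes. Signals near 90 are not shown to be above background.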

Other observations

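A further 3 probe sets list HOXD3 and HOXD4 together with another gene and so were left out of the gene comparison. The first read 103 and 178 after LPA, against 136 and 99.6 in untreated cells, above background on 3 of the 4 arrays. The other two lay below background on all arrays, one of them at 52.9 and 24.4 after LPA, against 3.26 and 3.94 in untreated cells. No direction for HOXD3 is drawn from them, since their probes do not separate it from HOXD4.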
